A study of Mus musculus with 3 samples.

Results

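Zfp is the mouse name stem of a large group of zinc finger protein genes, and this account covers the Sp9 chromatin peaks that carry such a name. The members are all peaks of the deposited shared-peak list whose gene name is Zfp followed by a number and at most 1 letter. They numbered 328 of 19979 peaks (1.64% of the list) and carried 224 of its 13383 gene names. The peaks came from olfactory bulbs of CD1 mice aged postnatal day 0 to 2, fixed with 1% formaldehyde for 10 min. There were 2 immunoprecipitations with a homemade antibody against Sp9, a zinc finger transcription factor of olfactory bulb interneurons, and 1 input library without antibody. The labels name no genotype or treatment for any of the 3 libraries and do not say whether the immunoprecipitations came from separate animals; whole bulbs mix interneurons, projection neurons, glia and vessels. The list holds 1 score per peak and no value per library, so there was no error between replicates and no test between groups.

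A classical zinc finger is a short loop held by a zinc ion between cysteines and histidines, and arrays of such fingers read DNA sequence. Many Zfp proteins also carry a KRAB domain, which recruits Trim28 and, through it, the histone methyltransferase Setdb1 to silence the bound DNA, often a retroviral element. Many KRAB genes arose by tandem duplication and lie in runs of similar copies, while others stand alone. Zfp genes without the domain include regulators of neural development, promoter factors and RNA-binding proteins. Sp9 belongs to the Sp and Klf zinc finger factors, which bind GC-rich boxes.

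The promoter windows printed here are 250 bases long, end at the base before the annotated start and are credited to RefSeq, assembly GRCm38.p6. They show the range of sequence behind the comparison that follows. Zfp777 and Zfp664 had high-scoring peaks and several GC boxes, Zfp335 had a high-scoring peak and no box, and Zfp458 and Zfp111 stood in long gene runs that were nearly or wholly without peaks. Capitals mark the GC box GGGCGG, searched on both strands with overlaps allowed, so that it reads as CCGCCC where it lies on the other strand. These 5 were chosen after their values were seen.

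Zfp777 (GRCm38.p6, chr6:48047795-48048044, minus strand): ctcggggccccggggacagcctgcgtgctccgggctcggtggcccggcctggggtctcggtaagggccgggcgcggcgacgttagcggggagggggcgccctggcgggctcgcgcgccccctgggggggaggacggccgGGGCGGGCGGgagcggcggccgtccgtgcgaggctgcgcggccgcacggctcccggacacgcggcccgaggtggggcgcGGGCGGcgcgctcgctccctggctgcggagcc

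Zfp664 (GRCm38.p6, chr5:124862455-124862704, plus strand): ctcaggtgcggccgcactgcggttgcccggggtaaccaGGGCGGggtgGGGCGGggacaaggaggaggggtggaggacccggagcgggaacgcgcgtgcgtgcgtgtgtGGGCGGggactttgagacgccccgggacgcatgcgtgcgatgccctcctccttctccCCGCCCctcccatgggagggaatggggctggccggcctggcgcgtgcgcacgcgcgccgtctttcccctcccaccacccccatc

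Zfp335 (GRCm38.p6, chr2:164911751-164912000, minus strand): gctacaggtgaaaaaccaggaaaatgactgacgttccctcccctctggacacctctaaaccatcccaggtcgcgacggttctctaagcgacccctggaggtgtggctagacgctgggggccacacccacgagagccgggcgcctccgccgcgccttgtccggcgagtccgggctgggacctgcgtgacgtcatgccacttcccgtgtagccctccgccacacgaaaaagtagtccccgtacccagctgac

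Zfp458 (GRCm38.p6, chr13:67268995-67269244, minus strand): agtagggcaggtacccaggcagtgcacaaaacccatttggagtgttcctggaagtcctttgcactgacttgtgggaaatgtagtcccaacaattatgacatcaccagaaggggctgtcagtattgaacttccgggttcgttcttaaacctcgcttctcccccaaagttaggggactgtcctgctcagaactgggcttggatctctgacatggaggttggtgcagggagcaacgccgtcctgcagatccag

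Zfp111 (GRCm38.p6, chr7:24208150-24208399, minus strand): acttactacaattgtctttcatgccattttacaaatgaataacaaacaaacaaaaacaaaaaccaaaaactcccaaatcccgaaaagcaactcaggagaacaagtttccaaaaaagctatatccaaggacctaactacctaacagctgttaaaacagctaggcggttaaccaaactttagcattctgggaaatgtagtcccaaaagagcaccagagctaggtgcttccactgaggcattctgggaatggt

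The Zfp777 window was 84.0% G or C and held 3 boxes, whose first printed bases lay 111, 107 and 32 bases before the start. The Zfp664 window had 4 boxes at 212, 202, 141 and 84 bases before the start, and 74.0% G or C. Both windows were rich in CpG, with 42 and 28 such steps. The Zfp335 window reached 63.6% G or C without a box, and those of Zfp458 and Zfp111 had 52.4% and 39.2% with 5 and 2 CpG steps. Zfp111 has 2 windows in the table, neither with a box, and 1 of them is shown. With the 50 bases after the start added, the higher of the 2 had 46.3% G or C. The peaks are placed on another build (mm9), so whether any of them covers its window was not analysed here.

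Zfp genes were named about as often as other genes. Of 394 protein-coding Zfp genes in the RefSeq table, 234 (59.4%, exact interval 54.4 to 64.3%) had at least 1 linked peak, that is, a peak for which the authors gave the gene's name. The background over all 21900 protein-coding genes was 55.4%. These 234 were 223 genes under their own Zfp name and 11 that the list gives under an older name, such as Zfp992 (a score of 376.43 as Gm13251) and Zfp982 (282.1 as Gm13152). The remaining Zfp name in the list, Zfp783, is not classed as protein-coding in the table. A peak at or above the median score of the whole list, 210.06, was linked to 121 of the 394 genes (30.7%, exact interval 26.2 to 35.5%), and the background of 35.4% lies just inside that interval. The intervals treat genes as independent, which members of 1 duplicated run are not.

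The peaks of Zfp genes had a median score of 190.03 (quartiles 125 and 317) against 210.06 for all peaks, and the exact interval of the Zfp median, 177 to 211, holds the latter. Of the 328 peaks, 146 (44.5%, exact interval 39.1 to 50.1%) lay at or above the list's median. In the highest-scoring 10% of the list, from a score of 536 upward, stood 23 Zfp peaks (7.01% of them, exact interval 4.50 to 10.3%), and in the lowest 10%, below 96.2, stood 32 (9.76%, exact interval 6.77 to 13.5%). Neither share was set apart from 10% at this number of peaks. Counted by gene, however, the highest peak of each Zfp name had a median score of 227 (exact interval 195 to 250). The same median over linked coding genes was 273, above that interval. Zfp peaks had a median width of 952 bp against 986 bp.

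**Figure D1:**
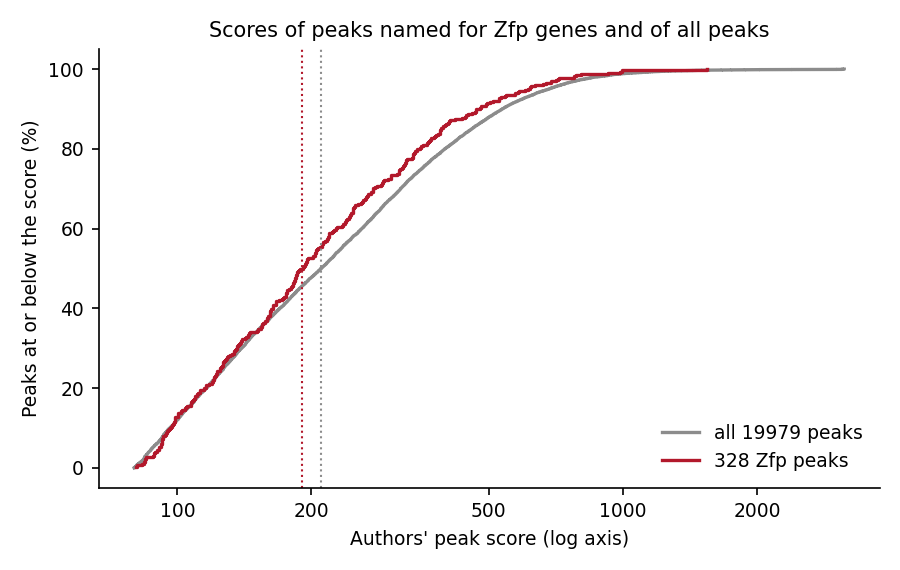
Share of peaks (vertical axis, percent) at or below each value of the authors' peak score (horizontal log axis) for the 328 Zfp peaks (red) and all 19979 peaks (grey), with dotted lines at the medians, 190.03 and 210.06. The curves run together at low scores, and the red curve lies to the left of the grey one through the middle and upper range.

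Only 1 Zfp peak passed a score of 1000. It belonged to Zfp316, lay on chromosome 5 between 144014599 and 144017235 (mm9) and scored 1545.93, more than 99.8% of the list. The next was the single peak of Zfp644 (997.05, chromosome 5, 107124607 to 107126023). Zfp423 followed with 984.19 (chromosome 8, 90481711 to 90486994), and Zfp703 with 926.18 (chromosome 8, 28088629 to 28090653). Zfp664 scored 803.35, Zfp367 785.74, Zfp335 778.41, Zfp697 719.55, Zfp330 716.7 and Zfp579 706.41, which completes the 10 highest. Of these 10, Zfp423, Zfp703 and Zfp335 are on the list of neural development genes described below, which holds 15 of the 224 Zfp names. That list was chosen with earlier results of these data known. The 3 lowest scores were those of Zfp691 (80.97), Zfp831 (81.16) and Zfp667 (83.33).

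Zfp genes that stand alone were linked far more often than those in runs of adjacent Zfp genes. Of 187 genes with no Zfp gene directly beside them among the protein-coding genes, 141 had a linked peak (75.4%, exact interval 68.6 to 81.4%). Of the 207 genes with a Zfp neighbour, 93 had one (44.9%, exact interval 38.0 to 52.0%). Both shares stand against the 55.4% of all coding genes, on opposite sides of it. The share was lower the longer the run: 31 of 48 genes in runs of 2 (64.6%), 29 of 59 in runs of 3 to 4 (49.2%) and 33 of 100 in runs of 5 or more (33.0%, exact interval 23.9 to 43.1%). Linked peaks per gene went from 1.15 for genes that stand alone to 0.460 in the longest runs. The median of each linked gene's highest score went from 248 to 186.

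The coding genes directly beside the longest runs were too few to place. Of the 20 that flank runs of 5 or more Zfp genes, 11 were linked (55%, exact interval 31.5 to 76.9%), a range that holds both the 33.0% of those runs and the 51.0% of 365 genes that flank a Zfp gene standing alone. For runs of 3 to 4 the flanking share was 10 of 34 (29.4%), so the flanks followed no steady order. Runs were built from Zfp symbols alone, and zinc finger genes with other names can interrupt or extend them. Genes were counted from a GRCm38.p6 table, while the peaks were placed on mm9. Some linked genes in runs of 5 or more, such as Zfp982 and Zfp994, carried only an older name in the list. A gene that the authors' annotation lacked would count as unlinked, and the part of this in the shares was not tested. Members of a run share sequence, and the sources used here do not say how reads that fit several copies were treated; its part in these shares was not tested.

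The long runs were far from uniform. The longest, 20 genes on chromosome 13 from Zfp455 to Zfp273, had 1 linked gene, Zfp748, with a score of 98.27. A run of 10 on chromosome 7 from Zfp180 to Zfp94, which includes Zfp111, had 0 linked genes. The run of 15 on chromosome 7 from Zfp84 to Zfp146 had 6 linked (Zfp30, Zfp74, Zfp568, Zfp14, Zfp82 and Zfp382). By contrast 6 of the 7 genes on chromosome 6 from Zfp786 to Zfp746 were linked, with 13 peaks, and all 5 on chromosome 8 from Zfp868 to Zfp866, with 6 peaks. Of 11 runs with 5 or more genes, 3 exceeded the 59.4% of all Zfp genes, and the median run had 33.3% linked.

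GC boxes in the promoter window moved with these shares. Here the window ran from 250 bases before to 50 bases after the start, a gene counted once if any of its windows held GGGCGG, and 329 of the 394 genes (83.5%) had a window. Among linked Zfp genes 115 of 189 had a box (60.8%, exact interval 53.5 to 67.8%), and among unlinked ones 40 of 140 (28.6%, exact interval 21.3 to 36.8%). Over all coding genes the shares were 68.0% and 26.2%, a gap of 41.8 percentage points beside 32.3 for Zfp genes; the difference between the gaps was not tested. Counted by window and not by gene, a box was present in 35.7% of all 32851 promoter windows. That share is therefore no background for the shares of genes. Boxes came in greater number at linked genes too, with 3 or more in 35 of the 189 (18.5%, beside 25.9% of linked coding genes) and in 1 of the 140 (0.714%, beside 5.06% of unlinked coding genes). A match of letters is a description of the window and not a binding site.

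Run length and GC box each went with the linked share when the other was held. Genes standing alone were linked in 73 of 84 cases with a box (86.9%) and in 40 of 68 without (58.8%). In runs of 5 or more the shares were 18 of 36 with a box and 12 of 55 without (21.8%). The box itself was less common in these long runs (39.6% of genes) than at genes standing alone (55.3%), and median window G and C content was 52.7% against 59.5%. The chromosome 13 run of 20 had a box in 2 of 17 windows and the chromosome 7 run of 10 in 0 of 9. The well-linked chromosome 6 run had one in 6 of 7. On chromosome 4, however, the run of 9 from Zfp978 to Zfp933 had a box in 5 of 7 windows and 3 linked genes. The run of 6 there from Zfp980 to Zfp993 had a box in 3 of 5 windows and 2 linked genes, and the run of 8 on chromosome 17 from Zfp760 to Zfp994 one in 6 of 8 and 3 linked genes. The part of base composition in the result was not tested.

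**Figure D2:**
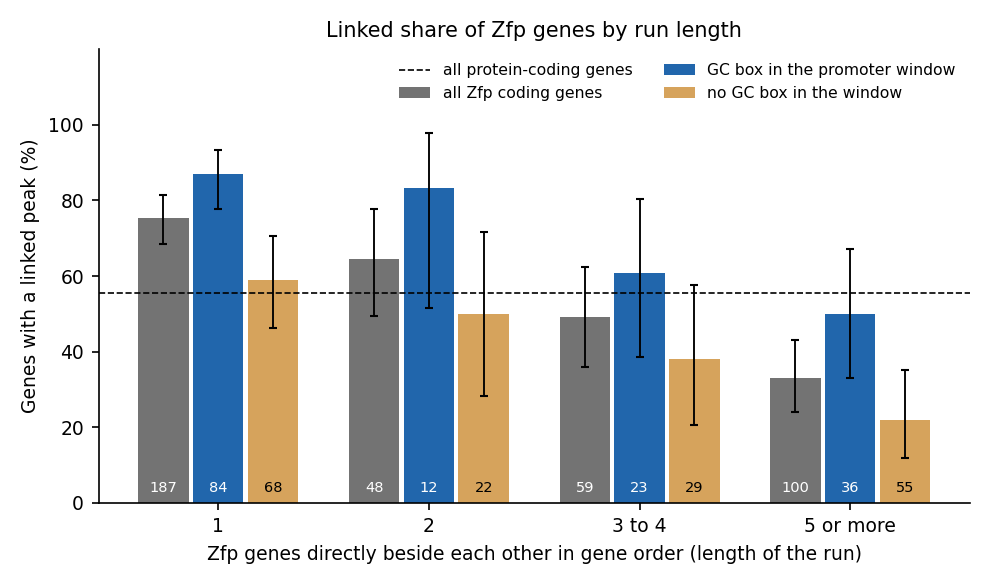
Percent of protein-coding Zfp genes with a linked peak (vertical axis) by the number of Zfp genes that lie directly beside each other (horizontal axis), for all genes (grey) and for those with (blue) and without (tan) a GC box in the promoter window. Bars carry exact 95% intervals, the figure at the foot of each bar is the number of genes, and the dashed line marks the 55.4% of all coding genes; grey bars step down from 75.4% to 33.0%, and each blue bar exceeds the tan bar beside it.

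Most unlinked Zfp genes lay on chromosomes 7, 13 and 17. Chromosome 7 had 93 of the 394 genes, of which 49 were linked (52.7%), above the 45.2% of all coding genes of that chromosome. Chromosome 17 had 21 of 45 linked (46.7%, against 53.2%) and chromosome 13 had 10 of 37 (27.0%, against 53.3%). Together these 3 chromosomes held 95 of the 160 unlinked genes, and their linked share was 45.7% against 70.3% on all others. Chromosome 15 had all 11 Zfp genes linked, chromosome 6 had 15 of 17 (88.2%) and chromosome 8 had 21 of 25 (84.0%). Without chromosomes 7, 13 and 17, chosen after their values were seen, the gap between genes standing alone and genes with a Zfp neighbour was 12.3 percentage points (74.6% against 62.3%) in place of 30.5. In peaks, chromosome 7 held 75 of the 328 (22.9%), against 7.21% of all peaks. This is close to its 23.6% of the Zfp genes.

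**Figure D3:**
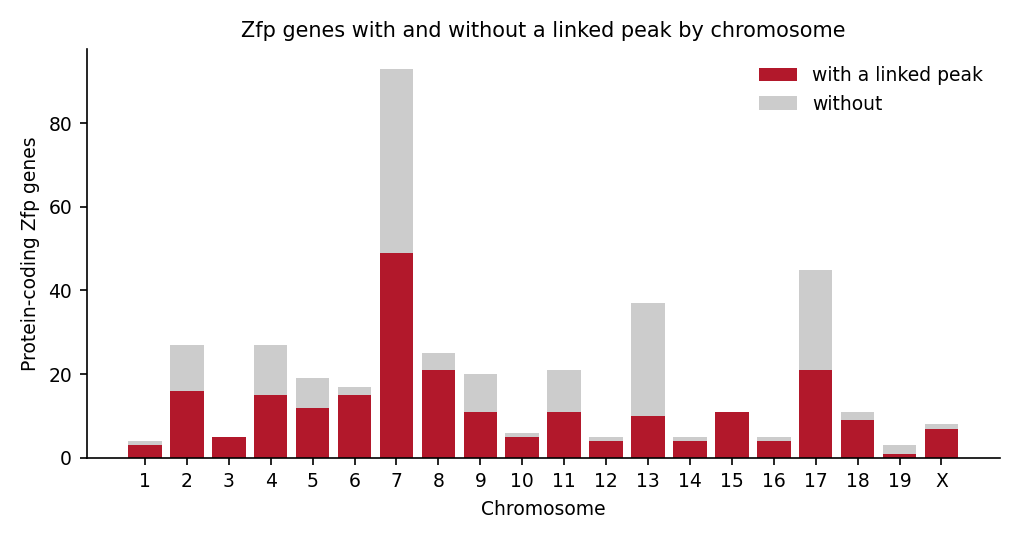
Number of protein-coding Zfp genes (vertical axis) on each chromosome (horizontal axis) with a linked peak (red) and without (grey). Chromosome 7 has the tallest bar, 93 genes with 49 linked, and chromosome 13 has more grey than red, with 27 of 37 genes unlinked.

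Most linked Zfp genes had a single peak. Of the 224 names, 157 had 1 peak and 67 (29.9%, exact interval 24.0 to 36.4%) had 2 or more, against a background of 27.9% of linked coding genes. There were 45 names with 2 peaks, 15 with 3 and 7 (3.13%) with 4 or more, beside 4.46% of linked coding genes with 4 or more. Multiple peaks were thus about as common as in the background. Single peaks had a median score of 186 and the 171 peaks of multiple-peak genes one of 201, with quartiles that nearly coincide (126 and 314 against 125 and 322).

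Within a multiple-peak gene the scores were usually unequal. The highest peak was 2.47 times the lowest in the median gene, and 42 of the 67 genes had peaks on both sides of the list's median, 11 had all at or above it and 14 had none there. The median distance from the first to the last peak of a gene was 21.7 kb, with 21 genes under 10 kb and 11 at 100 kb or more. The shortest span, 2.40 kb, and the longest, 507 kb, bound this range. A GC box was found in 62.7% of the multiple-peak genes that had a window and in 60.1% of the single-peak genes.

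**Figure D4:**
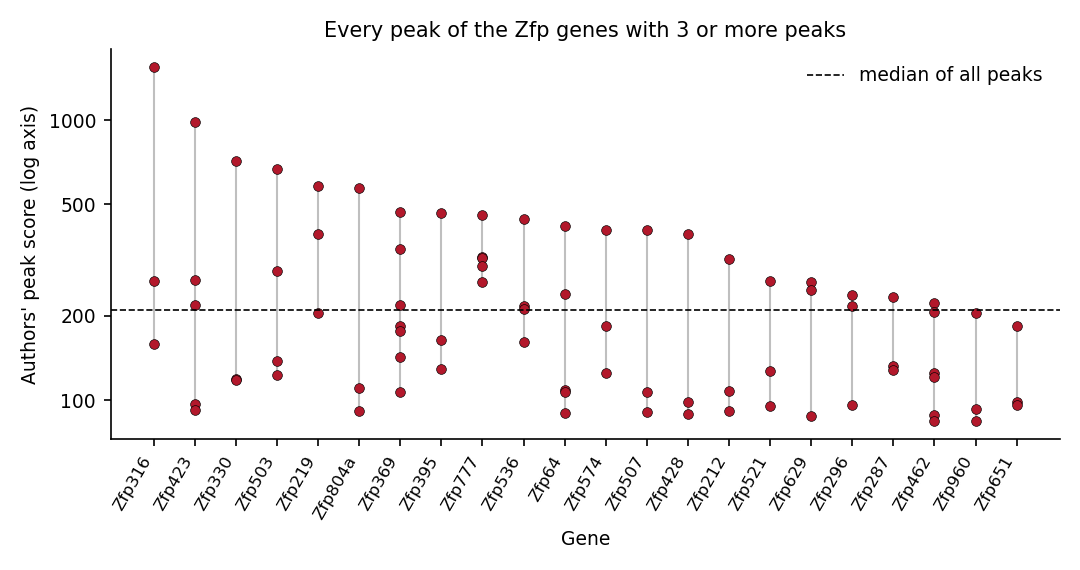
Authors' peak score (vertical log axis) of every peak of the Zfp genes with 3 or more peaks (horizontal axis, ordered by highest score), 1 point per peak, with the list's median of 210.06 dashed. Most genes have points on both sides of the line, while all 5 points of Zfp777 lie above it and those of Zfp960 and Zfp651 lie below it.

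The 7 genes with 4 or more peaks differed in how their scores were spread. Zfp369, a KRAB gene related to the neurotrophin receptor interactor Nrif1, had 7 peaks over 404 kb of chromosome 13 (65359405 to 65763335), scoring 468.52, 345.28, 218.25, 184.42, 176.57, 142.59 and 107.09. No peak of another name lay between them. Zfp462, a chromatin regulator of neural development, had 6 peaks over 459 kb of chromosome 4, of which only the highest (222.7) exceeded the list's median. Its other scores were 206.13, 124.95, 121, 88.7 and 84.12, so that many peaks went with low scores.

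Zfp777 and Zfp423 each had 5 peaks, in different patterns. Zfp777, in the chromosome 6 run, had 457.51, 324.3, 322.01, 301.44 and 264.91 within 64.7 kb, all above the list's median. Zfp423, which binds Ebf factors and serves cerebellar development, had 1 wide peak of 984.19 (5283 bp, the widest of all Zfp peaks), and 4 others of 267.64, 218.44, 96.68 and 92.53 within 183 kb. Zfp64 had 5 peaks from 418.91 down to 89.88. Zfp503, the striatal corepressor also known as Nolz1, had 4 peaks within 8.07 kb (670.75, 288.78, 138.69 and 122.92). Zfp536, a repressor of neuronal differentiation, had 4 over 204 kb (442.71, 217.3, 212.06 and 161.02).

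Peaks of Zfp genes less than 200 kb apart were chained into clusters. This gave 72 clusters of 2 or more peaks with 231 of the 328 peaks (70.4%), and 97 lone peaks. Peaks of other names were not chained in this way, so the 70.4% has no background. It also counts several peaks of 1 gene as a cluster, and clusters of at least 2 genes held 36.0% of the peaks. Of the 72, 44 clusters (113 peaks) belonged to 1 gene each, and 28 clusters (118 peaks) to several genes, 87 in all. Peaks of the several-gene clusters had a median score of 184 against 206 in 1-gene clusters and 194 for lone peaks, and 38.1% of them reached the list's median against 48.7% and 47.4%. Of the 28 several-gene clusters, 18 held no peak with any other name. For 72 of the 326 Zfp peaks on assembled chromosomes (22.1%) the nearest peak of another gene was also a Zfp peak, against 1.61% of all placed peaks. Peaks carry gene names, and many Zfp genes lie directly beside each other. A contrast of this kind was therefore set in advance by gene order and describes the naming only. The gaps nearest to the limit were 193 kb, between the 2 Zfp131 peaks on unplaced chromosome 13 sequence, and 217 kb, between Zfp236 and Zfp516.

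The cluster with the most peaks, 14 of 7 genes, lay on chromosome 6 from 47780043 to 48123203 (mm9). Its order was Zfp786 (327.73), Zfp398 (636.09), Zfp282 (527.79), Zfp212 (3 peaks, the highest 319.35), Zfp783 (389.28), Zfp777 (5 peaks) and Zfp746 (399.52 and 175.48). Of its 14 peaks, 11 reached the list's median, and no other gene name occurred among them. The second, 12 peaks of 8 genes on chromosome 7 from 134378970 to 134781162, ran from Zfp553 (186.38) over Zfp771, Zfp768 (511.21), Zfp747, Zfp764 (91.75), Zfp688 and Zfp689 to Zfp629 (263.43), with 7 peaks of other names among them.

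The other large clusters held lower scores. On chromosome 7 from 4866473 to 5005107, 9 peaks of Zfp628, Zfp579, Zfp524, Zfp865, Zfp784 and Zfp580 had a median of 161, although Zfp579 (706.41) and Zfp784 (660.91) stood high. Further along chromosome 7, from 30568661 to 30929221, 8 peaks of Zfp30, Zfp74, Zfp568, Zfp14, Zfp82 and Zfp382 had a median of 170, and only that of Zfp82 (248.72) reached the list's median. Zfp568 here represses a placental transcript of Igf2. The 7 peaks of Zfp369 made up the fifth.

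**Figure D5:**
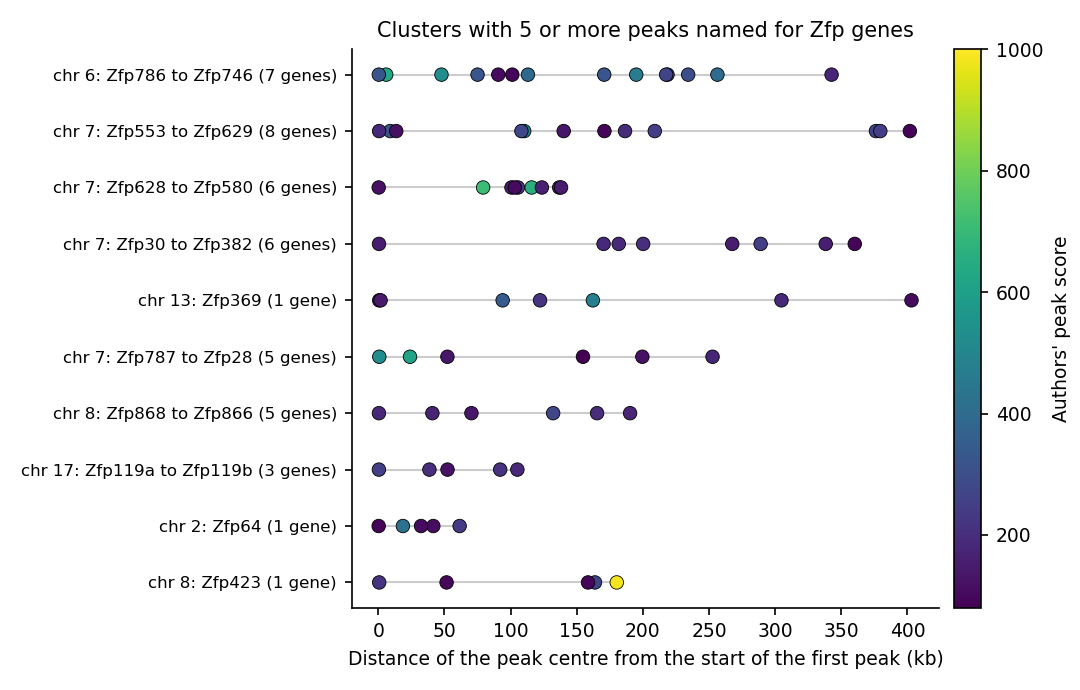
Clusters with 5 or more Zfp peaks, 1 per line, each point a peak placed by the distance of its centre from the start of the first peak (horizontal axis, kb) and coloured by the authors' score. The chromosome 6 cluster at the top is lighter in colour along most of its length than the chromosome 7 cluster from Zfp30 to Zfp382, whose 8 peaks score at most 248.72.

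Most listed genes with a known role stand alone, so their counts are read beside the Zfp genes that stand alone, of which 75.4% were linked and 44.4% had a peak at or above the list's median. Over all Zfp genes these shares were 59.4% and 30.7%, and over coding genes 55.4% and 35.4%. Of 18 listed names of neural development, Zfp238 is not a symbol of the gene table and was left out. Of the other 17, 15 were linked, 13 of them with a peak at or above the list's median. All but Zfp24 stand alone, and of those 16 genes 14 were linked (87.5%, exact interval 61.7 to 98.4%), an interval that holds the 75.4%. The highest scores of the listed genes had a median of 366, beside 248 over linked Zfp genes that stand alone and 227 over all Zfp names. Besides the genes already named, Zfp804a, in a psychiatric risk locus, had 573.64, 110.56 and 91.9 over 507 kb, the longest span. Zfp292 reached 480.5, the X-linked intellectual disability gene Zfp711 365.93, Zfp365 337.33 and Zfp804b 302.27. Zfp521, the relative of Zfp423, had 266.58, 126.84 and 95.26. Zfp407 reached 248.28, Zfp24, needed for myelination, 192.98 and Zfp608 134.41. Its paralog Zfp609 and the oligodendrocyte factor Zfp488 had no linked peak. The choice of this list rests on what is known of the genes, and it was made with earlier results of these data known.

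Of 8 listed binders of GC-rich and other promoter elements, Zfp161 and Zfp278 are not symbols of the gene table and were left out. The other 6 were all linked and all stand alone (exact interval 54.1 to 100%, which holds the 75.4% of such genes). Zfp219 had 581.12, 391.61 and 205.14, Zfp148 434.46 and 218.65, and its paralog Zfp281 378.29. Zfp410, an activator of Chd4, had 325.91, the promoter factor Zfp143 166.72 and the SCAN and KRAB gene Zfp263 120.08. The 3 subunits of the Z3 chromatin complex were also linked, Zfp592 with 450.04, Zfp532 with 379.96 and Zfp687 with 248.54 and 166.29.

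Zfp proteins that act on RNA or protein turnover had 10 of 12 genes linked (exact interval 51.6 to 97.9%), 5 with a peak at or above the list's median. All 12 stand alone, and both counts are close to the 75.4% and 44.4% of that class. The ribosome collision ligase Zfp598 reached 479.19 and the ribosomal maturation factor Zfp622 410.07. The nuclear matrix and splicing protein Zfp638 had 336.39, the double-stranded RNA binder Zfp346 296.61 and Zfp385b 259.88, beside 112.71 for its paralog Zfp385a. Below the list's median were Zfp326 of the DBIRD splicing complex (182.88), Zfp106 (154.61), Zfp207 (104.69) and Zfp36, the mRNA decay factor tristetraprolin (126.84 and 100.52). Zfp830 had none, and Zfp91 had none under its own name.

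Of 13 studied KRAB repressors 8 were linked (61.5%, exact interval 31.6 to 86.1%, near the 59.4% of all Zfp genes). A peak at or above the list's median was linked to 1 of the 13, Zfp369, beside 30.7% of all Zfp genes and 35.4% of coding genes. With 13 chosen genes, this count was not set apart from those shares. Of the 13, 6 stand alone and 2, Zfp568 and Zfp30, lie in runs of 5 or more. Zfp568 had 203.8, the imprint guardians Zfp57 and Zfp445 had 164.09 and 126.96, Zfp354c 159.75, Zfp30 153.8, Zfp354a 142.14 and Zfp37 105.16. Zfp809, Zfp708 and Zfp932, repressors of retroviral elements, had no linked peak, nor had Zfp110 and Zfp354b. The median of the highest scores was 157, beside 227 over all Zfp names. The 4 listed genes of the early embryo and germ line stand alone and were linked (exact interval 39.8 to 100%, a range too wide to set them beside the 75.4% of that class). Zfp541 reached 364.26, Zfp296 238.15, Zfp42, known as the pluripotency marker Rex1, 109.34 and Zfp352 92.89.

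A mixed list of genes of the KRAB corepressor machinery and other chromatin regulators was mostly linked. Of 21 genes 20 had a peak (95.2%, beside 55.4% of coding genes). A peak at or above the list's median was linked to 15 of them, beside 35.4% of coding genes. The genes were chosen with earlier results of these data known, and no class of like genes was set beside them. Trim28, the scaffold bound by the KRAB domain, had 496.48 and 83.8, and Setdb1, its methyltransferase partner, 136.17. High scores belonged to the deacetylase partner Mbd3 (641.5), Hdac2 (626.66), Trim24 (585.47) and the DNA methyltransferase Dnmt3a (568.35). The heterochromatin protein genes Cbx1 and Cbx5 had 134.52 and 145.13, and Cbx3 had no linked peak.

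Other zinc finger families were counted in the same way. Of 40 Zbtb genes, in which a BTB domain replaces KRAB, 33 were linked (82.5%, exact interval 67.2 to 92.7%), 27 of them with a peak at or above the list's median. Of 27 Zscan and Zkscan genes, which carry a SCAN domain, 14 were linked (51.9%, exact interval 31.9 to 71.3%), and 5 had such a peak. That interval holds the 59.4% of Zfp genes and the 55.4% of coding genes, while the Zbtb interval lies above both. The Zbtb interval does hold the 75.4% of Zfp genes that stand alone. How many Zbtb, Zscan and Zkscan genes stand alone was not counted. Such a peak was linked to 35.4% of coding genes. The median peak score was 268 for Zbtb names (55 peaks), 190.03 for Zfp names and 109 for Zscan and Zkscan names (17 peaks). The differences between families were not tested.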

How the data were processed

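Per the submitters' processing notes, Bowtie2 2.2.4, MACS 1.4.2 and the build mm9 were used, with no role or setting given. The authors deposited 1 list of shared peaks with a peak score each. The sources used here do not give the formula of this score, the rule for a shared peak, or how a gene was assigned to it. Start and end positions, the other values of the deposited list, are printed as given. Depth is unknown, so no interval for a peak can be given. Scores rank peaks within this list only.

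Gene names were looked up in RefSeq's table for GRCm38.p6 by symbol, then by a synonym held by 1 gene; all 224 Zfp names matched by symbol. Only names, classes and the order of genes were taken from it. Clusters chain peaks whose gap, end to start, is under 200 kb. Shares have exact Clopper-Pearson intervals at 95%. No test was run. Python 3.11.15, pandas 2.3.3 and SciPy 1.17.1 were used, and the scripts were tested on simulated data. Named are the 10 highest and 3 lowest peaks, genes with 4 or more peaks, the 5 largest clusters and the members of 7 lists; other names, the runs described and the printed windows were chosen after values were seen. The members and lists were chosen with earlier results of these data known. Zfp238, Zfp161 and Zfp278, 3 listed names, are not symbols of the gene table and were left out of the counts. KRAB domains and finger numbers were not analysed here, because no protein sequences were used.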

Additional observations from a re-analysis of the deposited data

How the results depend on the processing

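Of 49 alternative values, 28 stayed within the exact interval of the reported share or median or within 1.5 times the reported count or gap, and 21 moved. With peaks at or above the median score only, there were 146 Zfp peaks and 120 names, 30.7% of Zfp genes were linked against 35.4% of coding genes, 16.7% of names had several peaks, and 23 clusters held 43.8% of these peaks; genes with a Zfp neighbour fell to 18.4% and those without to 44.4%, and GC boxes were at 69.0% of genes with such a peak and 37.6% of the rest. Several peaks were found for 6.78% of names among the highest-scoring 25% of peaks. The highest peak of each name gave a median of 227 (exact interval 195 to 250), against 273 over linked coding genes. A gap of up to 500 kb put 76.8% of peaks in clusters; requiring at least 2 genes left 28 clusters with 36.0%. The longer box GGGGCGGGG was found in 18.0% of linked and 5% of unlinked genes, 13 points apart in place of 32.3. Added after the data were seen were the share without runs of 5 or more (68.4%), and, without chromosomes 7, 13 and 17, 62.3% for genes with a Zfp neighbour, 12.3 points below the others. Counts fall there because fewer peaks or genes enter; beyond that the cause was not tested.

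Not run were the KRAB comparison and the background of genes with a protein sequence, which need protein sequences. Leaving out a library was not run because the list holds no value per library. No paired analysis was possible because there is 1 input library and no value per library. Depth is unknown, so an unlinked gene is one without a listed peak and not one shown to be unbound.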
